A study of Homo sapiens with 12 samples.

Results

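TNFRSF1B, TIMP1, CD82, GMIP and SIRT4 are 5 genes, of 58051 listed in the count table, whose transcripts were higher after each of 3 siRNA knockdowns in MDA-MB-231 cells than in control-transfected cells. They were chosen by these measured values, as genes raised by siNELFA, by siYAP and by both siRNAs together, so their changes against siControl are given as a description without p-values. The relatives of 4 of the genes were not part of the choice and are tested. The differences between the knockdowns are also tested, but the choice used those libraries, so their p-values are not independent of it. MDA-MB-231 is an established line of triple-negative breast cancer cells, that is, cells without oestrogen receptor, progesterone receptor or amplified HER2. The cells received Dharmacon siRNA pools by lipid transfection at 50 to 100 nM: a non-targeting pool (siControl), a pool against NELFA (siNELFA), a pool against YAP1 (siYAP), or the last 2 together (siNELFA+siYAP, the combined knockdown). Each of the 4 groups had 3 libraries of rRNA-depleted, stranded total RNA. The labels name harvests at 48 and 72 h after transfection without assigning either to a library, while the study's methods give 72 h for sequencing. All groups came from 1 cell line. The study's methods describe 3 independent biological replicates and the labels number the libraries without saying how cultures were split, so p-values measure the spread between these libraries.

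NELFA is a subunit of the negative elongation factor, which holds RNA polymerase II paused shortly after the start of a gene. YAP1 is the transcriptional coactivator restrained by the Hippo pathway, and it reaches DNA mainly through TEAD proteins. The 5 genes act in different places. TNFRSF1B encodes TNFR2, a receptor for tumour necrosis factor that signals through TRAF proteins and has no death domain. TIMP1 is a secreted inhibitor of matrix metalloproteinases that also binds the cell surface with the tetraspanin CD63. CD82, also called KAI1, is a tetraspanin known as a suppressor of metastasis. GMIP is a GTPase-activating protein that binds the small GTPase GEM. SIRT4 is a mitochondrial sirtuin that restrains the use of glutamine.

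The stretches just upstream of the RefSeq starts are shown because these 5 genes moved together and the knocked-down factors act on transcription. They are 5′ to 3′ on the strand of each gene, from RefSeq on GRCh38.p14, without parts that GENCODE annotates as exons. For CD82 the RefSeq start, chr11:44565663, lies inside the GENCODE gene, which begins at 44564427. Its stretch is thus within that gene, and the 62 exon bases next to the RefSeq start are left out. Capitals mark the GC box GGGCGG, or the letters TATAAA in SIRT4, on either strand. The 2 marked GC boxes of TNFRSF1B share a base.
TNFRSF1B (chr1:12166741-12166990, plus strand): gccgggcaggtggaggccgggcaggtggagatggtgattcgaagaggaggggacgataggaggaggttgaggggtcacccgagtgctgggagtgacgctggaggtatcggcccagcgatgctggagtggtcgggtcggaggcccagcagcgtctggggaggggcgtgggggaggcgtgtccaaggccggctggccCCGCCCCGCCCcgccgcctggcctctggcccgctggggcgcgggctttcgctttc
TIMP1 (chrX:47582186-47582407, plus strand): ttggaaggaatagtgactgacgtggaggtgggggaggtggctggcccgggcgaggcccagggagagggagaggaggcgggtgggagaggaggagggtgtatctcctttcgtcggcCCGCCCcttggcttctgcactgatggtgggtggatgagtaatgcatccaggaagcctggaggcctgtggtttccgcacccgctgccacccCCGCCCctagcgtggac
CD82 (chr11:44565413-44565600, plus strand): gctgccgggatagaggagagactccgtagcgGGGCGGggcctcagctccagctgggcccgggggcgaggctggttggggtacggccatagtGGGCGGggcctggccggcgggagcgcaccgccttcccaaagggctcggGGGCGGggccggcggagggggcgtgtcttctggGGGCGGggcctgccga
GMIP (chr19:19643658-19643907, minus strand): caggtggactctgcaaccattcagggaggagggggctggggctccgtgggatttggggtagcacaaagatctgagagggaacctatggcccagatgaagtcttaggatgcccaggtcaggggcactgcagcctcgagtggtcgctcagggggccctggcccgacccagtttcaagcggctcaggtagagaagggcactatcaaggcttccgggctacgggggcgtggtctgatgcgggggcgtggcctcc
SIRT4, the start nearest the GENCODE gene start (chr12:120302071-120302315, plus strand): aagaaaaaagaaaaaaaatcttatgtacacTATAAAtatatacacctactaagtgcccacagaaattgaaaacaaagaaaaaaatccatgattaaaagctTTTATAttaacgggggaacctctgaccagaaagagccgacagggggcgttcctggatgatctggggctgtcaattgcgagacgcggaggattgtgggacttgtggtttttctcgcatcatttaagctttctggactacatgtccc

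Over the 250 bases before each start, the G and C content was 72.4% for TNFRSF1B, 64.8% for TIMP1, 77.2% for CD82 and 63.6% for GMIP, against a median of 62.0% over 22199 promoters. SIRT4 differed from them, with 39.6% before the start shown and 47.2% before a RefSeq start further upstream. The GC box was found 2 times for TNFRSF1B, 2 times for TIMP1 and 4 times for CD82, and was absent from the windows of GMIP and SIRT4. It occurs in 53.74% of promoters of this length. TATAAA, present in 9.0% of promoters, was found 2 times before the SIRT4 start shown, at 220 and 150 bases from it, the second on the opposite strand. The cyclic AMP element TGACGTCA, present in 2.01%, was found 1 time before the other SIRT4 start. The TEAD core GGAATG, in 10.47% of promoters, and the AP-1 site TGANTCA, in 5.36%, were in none of the 6 windows on either strand. These are descriptions of the letters in a short window and carry no information on binding.

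On GRCh38 with the GENCODE annotation, the genes lie at chr1:12166991-12209228 (TNFRSF1B), chrX:47582408-47586789 (TIMP1), chr11:44564427-44620358 (CD82), chr19:19629476-19643657 (GMIP, minus strand) and chr12:120302316-120313249 (SIRT4). TIMP1 lies inside SYN1, a synaptic gene on the opposite strand that had 0 to 16 counts per library. GMIP has close neighbours on its own strand. LPAR2 lies 546 bases from it and had 48 to 160 counts per library, and ATP13A1 lies 1541 bases away on the other side. ATP13A1, a transporter of the endoplasmic reticulum, had log2 changes against siControl of 0.49 (SE 0.27) after siNELFA, 0.35 (SE 0.25) after siYAP and 0.62 (SE 0.22) after both. These values are of the same sign as those of GMIP.

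The libraries held 9608145 to 18803104 counts, the lowest being siControl 1, and levels are given as CPM, the count scaled by the library's total and edgeR's TMM factor. NELFA fell from 25.3 to 27.8 CPM in siControl to 7.10 to 9.95 in siNELFA and 6.34 to 8.18 in siNELFA+siYAP. YAP1 fell from 246 to 302 CPM in siControl to 37.6 to 46.1 over the siYAP and siNELFA+siYAP libraries. The mesenchymal markers VIM, CD44, AXL, SPARC and CAV1 were counted in every library, with a summed level of 3714 to 5165 CPM. The receptors ESR1 and PGR had 0 to 6 counts per library. The defining leukocyte marker PTPRC had 0 to 4 counts and CD3E had 0. The summed level of the 6 luminal or epithelial markers ranged from 246 to 266 CPM in siControl, 251 to 316 after siNELFA, 230 to 235 after siYAP and 219 to 229 after both. That of the 5 markers of other cell types ranged from 109 to 120, 160 to 188, 143 to 169 and 210 to 224 CPM in the same order, and it consisted mostly of CD68, which tumour lines also express. Within the epithelial list, E-cadherin (CDH1) set library 1 apart. It had 230 counts in siControl 1, 599 in siNELFA 1 and 169 in siYAP 1, but 0 to 17 in their libraries 2 and 3 and 4 to 10 in siNELFA+siYAP. The part of this in the changes below was not tested, and each change is given with and without library 1 of those 3 groups. The 3 combined-knockdown libraries all carry the number 1 in their names, with a further index of 1 to 3, and their numbers do not pair with those of the other groups. Whether they are separate cultures cannot be read from the labels. If they are repeats of 1 culture, errors and p-values involving this group understate the spread between cultures.

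TNFRSF1B stood at 72.6, 62.4 and 63.3 CPM in the 3 siControl libraries. In siNELFA it was 149, 96.3 and 95.7 CPM, and in siYAP 165, 78.4 and 92.4 CPM. In siNELFA+siYAP it was 123, 125 and 124 CPM. Every knockdown library lay above every siControl library, but in each single knockdown library 1 stood far above libraries 2 and 3, whereas the combined knockdown was nearly uniform. The mean rose from 66.1 ± 5.62 (SD, n = 3) to 114 ± 30.7, 112 ± 46.2 and 124 ± 0.938 CPM. In bulk RNA, a change in the share of expressing cells and in RNA per cell cannot be told apart. In edgeR's fit the log2 changes for siNELFA, siYAP and the combined knockdown were 0.78 (SE 0.22), 0.75 (SE 0.29) and 0.89 (SE 0.12).

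TIMP1 was at 91.3, 88.4 and 102 CPM in siControl. It was at 168, 121 and 127 CPM in siNELFA and at 183, 123 and 142 CPM in siYAP. In siNELFA+siYAP it was at 179, 188 and 179 CPM. As with TNFRSF1B, library 1 was the highest in each single knockdown, and no knockdown library reached down to the siControl range. Its log2 changes for siNELFA, siYAP and the combined knockdown were 0.56 (SE 0.18), 0.66 (SE 0.20) and 0.94 (SE 0.11), so this inhibitor of matrix proteases stood highest when both factors were depleted.

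CD82 was at 101, 139 and 138 CPM in siControl, with library 1 below the other two. The siNELFA libraries were at 242, 241 and 221 CPM, the siYAP libraries at 189, 160 and 166 CPM and the combined-knockdown libraries at 265, 270 and 255 CPM. The groups did not overlap: siControl, siYAP, siNELFA and siNELFA+siYAP formed 4 separate ranges in rising order. The share of all genes that separate in this way was not counted, so nothing is drawn from it. The siNELFA change was 0.90 on the log2 scale (SE 0.18), that of siYAP 0.44 (SE 0.19) and that of both together 1.05 (SE 0.14). Among the 5 genes, CD82 alone had a single-knockdown estimate under 0.5, that of siYAP.

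GMIP was at 12.5, 12.8 and 16.3 CPM in siControl. The siNELFA libraries were at 22.7, 19.1 and 24.0 CPM, the siYAP libraries at 23.4, 17.3 and 19.8 CPM and the combined-knockdown libraries at 25.6, 25.7 and 22.4 CPM. The gap was narrow, since siControl 3 at 16.3 CPM lay just under siYAP 2 at 17.3 CPM. Its log2 changes were 0.66 (SE 0.21) after siNELFA, 0.53 (SE 0.23) after siYAP and 0.81 (SE 0.16) after both.

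SIRT4 rested on few reads, and against siControl it passed the filter on low counts only through the knockdown libraries. The siControl libraries had 6, 10 and 12 counts, the siNELFA libraries 24, 27 and 22, the siYAP libraries 22, 15 and 32 and the combined-knockdown libraries 16, 16 and 23. Summed over the 3 libraries this is 28 counts for siControl (exact Poisson 95% interval 18.6 to 40.5), 73 for siNELFA (57.2 to 91.8), 69 for siYAP (53.7 to 87.3) and 55 for the combined knockdown (41.4 to 71.6), intervals that cover counting error only. Scaled by depth, the summed level was 0.598 CPM in siControl with an interval of 0.398 to 0.865, and 1.23 CPM in siNELFA+siYAP with an interval of 0.926 to 1.60. Its log2 changes were 1.36 (SE 0.41) after siNELFA, 1.49 (SE 0.46) after siYAP and 1.01 (SE 0.36) after both. SIRT4 thus had the highest estimates for the single knockdowns and the widest errors, and it was the 1 gene of the 5 whose estimate was lower in the combined knockdown than in either single knockdown.

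**Figure D1:**
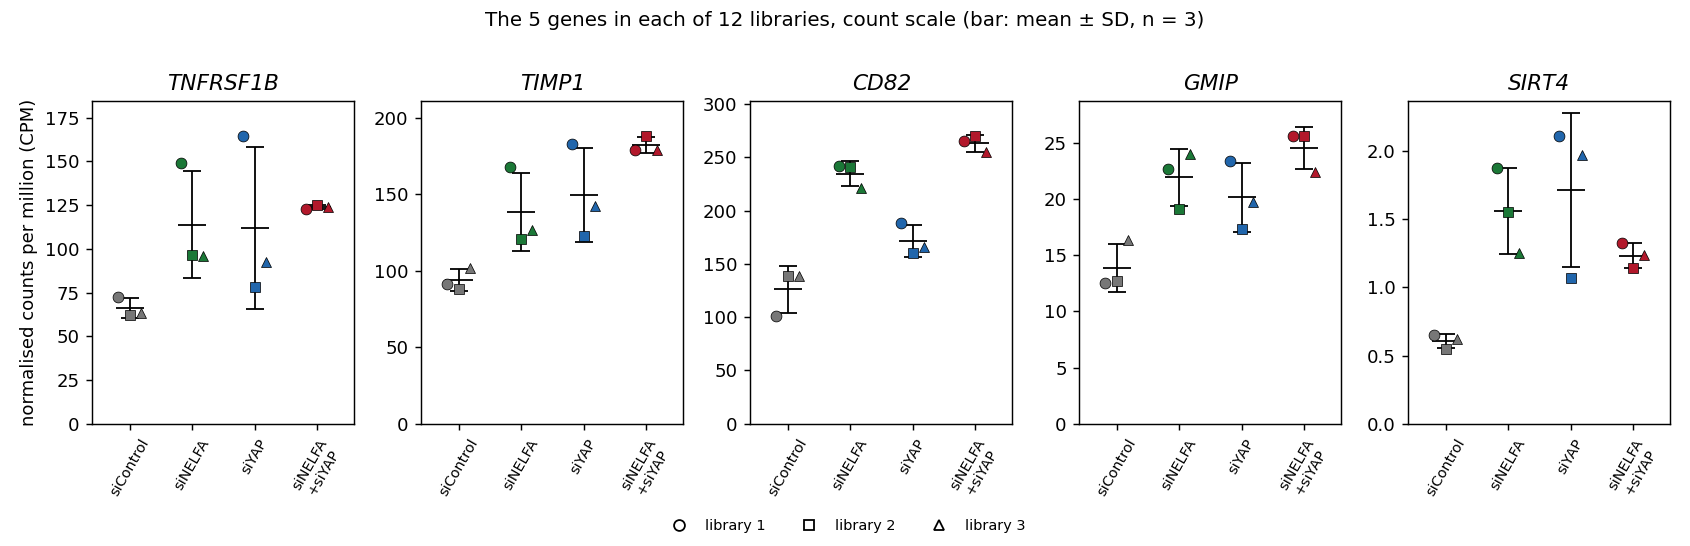
Normalised counts (CPM) of the 5 genes (one panel each, axis from 0) in the 12 libraries, coloured by group and shaped by library number, with the mean and SD of 3 libraries. Every knockdown library lies above the 3 siControl libraries, and library 1 (circles) is the highest of siNELFA and siYAP for TNFRSF1B and TIMP1.

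All 5 genes were above all siControl libraries in all 9 knockdown libraries, which holds for 166 of 16854 genes tested in the 3 comparisons (0.985%). At an unadjusted p under 0.05 in edgeR, the 5 were higher in each comparison, which follows from how they were chosen. Over all genes the share higher at that threshold was 2.25% after siNELFA, 0.752% after siYAP and 8.27% after both, and 18 genes (0.107%) were higher in all 3. The 3 comparisons share the siControl libraries, so these counts are not independent of each other. Besides the members, the 18 genes include TCIRG1, LAMA5, HELZ2 and TMEM173. CD68, which makes up most of the marker sum for other cell types, is also among the 18, with log2 changes of 0.63, 0.47 and 0.94 for siNELFA, siYAP and both, and the part of this in the members' changes was not tested. In siYAP, CD82 and GMIP were the members with the smallest estimates.

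The changes depended on single siControl libraries to differing degrees. CD82 leaned most on siControl 1, its lowest control: without that library its log2 changes for siNELFA, siYAP and both were 0.76, 0.31 and 0.92, against 0.97, 0.50 and 1.13 without siControl 2. GMIP leaned on siControl 3, its highest control, and without it rose further from control, to 0.80, 0.66 and 0.95. TNFRSF1B likewise went up without siControl 1, its highest control, to 0.86, 0.83 and 0.97. TIMP1 and SIRT4 stayed within 0.08 of their estimates whichever siControl library was left out. All 45 of these values kept their sign, which follows from every knockdown library standing above every siControl library. The largest move was 0.14 on the log2 scale.

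What did change was which of the 5 passed that threshold. Without siControl 1, TNFRSF1B and TIMP1 alone of the 5 were higher at an unadjusted p under 0.05 in all 3 comparisons, beside 32 genes in all (0.183%). Without siControl 3 these were GMIP and TIMP1, beside 30 genes (0.175%). Without siControl 2, none of the 5 passed in all 3, beside 4 genes (0.0233%). Each of these fits has 2 control libraries instead of 3, and their estimates stayed close to those of the full fit, as given above.

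**Figure D2:**
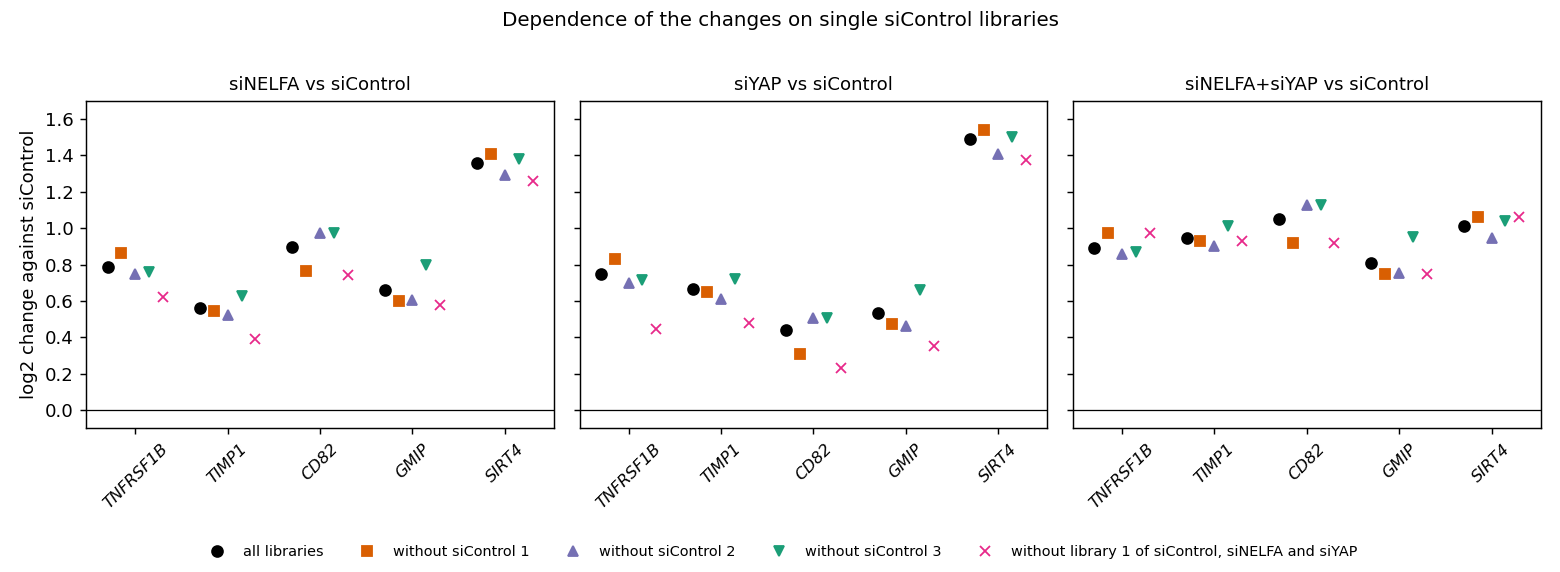
Log2 change against siControl (y axis) of each gene (x axis) in the 3 comparisons (panels), with all libraries (black circles), without each siControl library in turn, and without library 1 of siControl, siNELFA and siYAP (crosses). Points for leaving out a siControl library lie within 0.14 of the full estimate, and the crosses fall lowest for the siYAP comparison, down to 0.23 for CD82.

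Library 1 of the single-knockdown groups mattered more. Setting each library against the siControl library of its own number, TNFRSF1B differed by 1.18, 0.33 and 0.54 on the log2 scale in siYAP and by 1.04, 0.63 and 0.60 in siNELFA. CD82 differed by 0.90, 0.20 and 0.26 in siYAP and by 1.26, 0.79 and 0.68 in siNELFA. TIMP1 differed by 1.00, 0.48 and 0.48 in siYAP and by 0.88, 0.45 and 0.32 in siNELFA. For these genes the first pair gave the largest difference in both single knockdowns. GMIP had the same order, with 0.90, 0.44 and 0.27 in siYAP, while SIRT4 did not, with 1.62, 0.94 and 1.63. All 30 of these differences were above 0, which again follows from no knockdown library reaching down to siControl.

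Leaving out siYAP 1 alone took the siYAP change of TNFRSF1B from 0.75 to 0.37, and leaving out siYAP 2 took it to 0.95, while the other changes against siControl moved by less than 1.5 times when any 1 library was left out. With library 1 of siControl, siNELFA and siYAP left out, a setting chosen after the data were seen, the log2 changes in siYAP were 0.44 for TNFRSF1B, 0.48 for TIMP1, 0.23 for CD82, 0.35 for GMIP and 1.38 for SIRT4. For TNFRSF1B, CD82 and GMIP that is lower by more than 1.5 times than with all libraries. In siNELFA they were 0.62, 0.39, 0.74, 0.58 and 1.26 in the same order. In siNELFA+siYAP, whose own libraries were all kept, they were 0.97, 0.93, 0.92, 0.75 and 1.06. The single-knockdown increases were thus smaller without library 1, and those of the combined knockdown stayed within 0.14 of their full estimates.

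Whether the effects of the 2 siRNAs added up was described by setting the rise above the siControl mean in the combined knockdown beside the sum of the 2 single rises. For CD82, siNELFA added 109 CPM and siYAP 45.4 CPM, together 154 CPM, and the combined knockdown added 137 CPM (89.1%). For TIMP1 the rises of 44.6 and 55.5 CPM sum to 100.1 CPM, and 88.2 CPM was observed (88.1%). These 2 genes came closest to the sum. For GMIP, 10.7 CPM was observed of 14.4 CPM (74.5%), and for TNFRSF1B 57.7 of 93.4 CPM (61.8%). For SIRT4, 0.627 CPM was observed of 2.07 CPM (30.4%), and its level in the combined knockdown was below that in each single knockdown.

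On the log2 scale, where adding the single changes means multiplying folds, the combined knockdown fell short for every member. The shortfall was −0.63 (SE 0.36) for TNFRSF1B, −0.27 (SE 0.24) for TIMP1, −0.28 (SE 0.20) for CD82, −0.37 (SE 0.25) for GMIP and −1.83 (SE 0.52) for SIRT4. Over 18525 genes the median was −0.01, with the 10th percentile at −0.74 and the 90th at 0.50. Only SIRT4, with 6 to 32 counts per library, lay outside that range. Low siControl and high single-knockdown values, which the choice favoured, pull the departure down, and a high combined value pulls it up. All genes together are thus not a like reference for chosen ones. These departures contain the same siControl libraries as the choice, and are given without a test. Without library 1 of the 3 groups the departures were −0.09 for TNFRSF1B, 0.06 for TIMP1, −0.06 for CD82, −0.18 for GMIP and −1.57 for SIRT4.

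**Figure D3:**
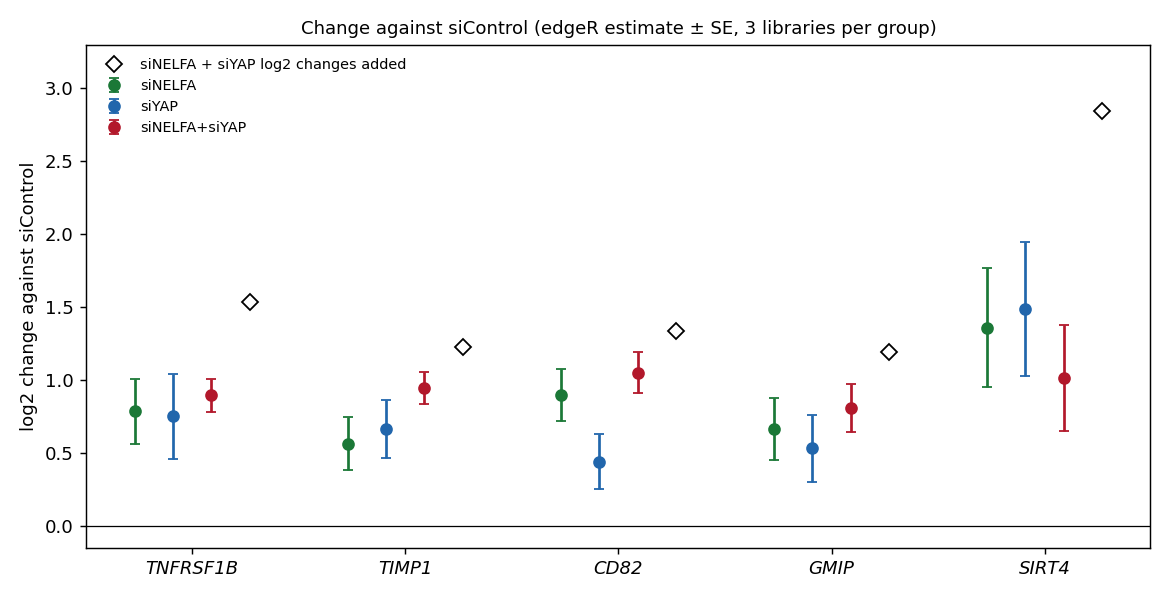
Log2 change against siControl (y axis, edgeR estimate ± SE, 3 libraries per group) in siNELFA, siYAP and siNELFA+siYAP for each gene, with the sum of the single-knockdown log2 changes as an open diamond. The diamond lies above the combined knockdown for all 5 genes, farthest for SIRT4, where the combined estimate of 1.01 is below both single ones.

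The differences between the knockdowns were tested with edgeR's quasi-likelihood test and Benjamini-Hochberg adjustment over all genes. The choice did not compare the knockdowns, but it required high values in each of them. These p-values are therefore not independent of it and serve as a description. Between siNELFA+siYAP and siNELFA, none of the 5 passed, against 1 gene of 17463 (0.00573%). TIMP1 came nearest, 0.39 higher (SE 0.14, edgeR unadjusted p = 0.0268, adjusted p = 0.735), and it was the 1 member with an unadjusted p under 0.05. DESeq2 called none of the 5 there. Between siNELFA+siYAP and siYAP, none of the 5 passed either, against 6 genes of 17167 (0.035%). CD82 was 0.61 higher (SE 0.11) in the combined knockdown, at an edgeR unadjusted p of 0.000664 and an adjusted p of 0.123. It was the 1 member with an unadjusted p under 0.05. DESeq2 called it, with an adjusted p of 0.000484, in a fit that called 749 of 17147 genes. With no filter on low counts edgeR also called it, with an adjusted p of 0.0384, in a fit that called more genes in all, as given in the last section.

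Leaving out library 1 of a single knockdown changed these calls. Without siNELFA 1, TIMP1 was 0.55 higher in the combined knockdown than in siNELFA (edgeR adjusted p = 0.00252) and TNFRSF1B 0.36 higher (adjusted p = 0.0267). Without siYAP 1, TNFRSF1B was 0.54 higher than in siYAP (edgeR adjusted p = 0.00112), TIMP1 0.46 higher (adjusted p = 0.00181) and CD82 0.69 higher (adjusted p = 4.8e-05). The genes called in all numbered 228 and 2937 in those fits. With all libraries they were 1 of 17463 and 6 of 17167, so the members' calls came with those of many other genes. GMIP and SIRT4 did not pass in any of these fits. GMIP was 0.16 (SE 0.15) above siNELFA and 0.28 (SE 0.16) above siYAP, and SIRT4 was at −0.33 (SE 0.34) and −0.48 (SE 0.39) against them.

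Between siNELFA and siYAP, none of the 5 passed the adjusted threshold, against 2 genes of 17257 (0.0116%), and DESeq2 called none of the 5. CD82 was 0.46 higher in siNELFA (SE 0.14, edgeR unadjusted p = 0.0135, adjusted p = 0.849). The library numbers pair these groups, and with the number as a replicate block CD82 was again 0.46 higher (SE 0.08) and passed, with an edgeR adjusted p of 0.000327, in a fit that called 15.8% of genes. The other 4 did not pass with the block. Without the block their differences were 0.03 (SE 0.32) for TNFRSF1B, 0.13 (SE 0.20) for GMIP, −0.10 (SE 0.21) for TIMP1 and −0.13 (SE 0.41) for SIRT4, with errors wide enough to hold sizable differences in either direction. CD82 was thus the 1 member called between the single knockdowns, and only with the block, siYAP having the lower level.

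The authors' second table, in TPM, which scales for transcript length and library total, gave the levels and a second reading of the same libraries. The members were chosen for rising in these libraries, so their rise in TPM is not independent evidence of it. In siControl, TIMP1 at 189 ± 3.78 TPM (SD, n = 3) and CD82 at 119 ± 21.8 TPM were among the abundant transcripts, with 412 and 785 of 12185 protein-coding genes of at least 1 TPM above them. TNFRSF1B at 23.7 TPM (21.3 to 27.1) had 5087 above it, GMIP at 6.18 ± 1.41 TPM had 9683, and SIRT4 at 1.01 ± 0.562 TPM had 12176. TIMP1 and CD82 differ by more than their spread, as do CD82, TNFRSF1B, GMIP and SIRT4 in turn.

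In TPM, all 9 knockdown libraries stood above siControl for TNFRSF1B and TIMP1, which holds for 27 of 16854 genes (0.16%). TNFRSF1B was at 27.1, 22.7 and 21.3 TPM in siControl, 41.3, 29.7 and 29.4 after siNELFA, 55.8, 27.1 and 31.7 after siYAP and 37.7, 41.1 and 38.3 after both. In siYAP its second library was level with siControl 1. TIMP1 was at 185, 193 and 189 TPM in siControl, 266, 198 and 214 after siNELFA, 359, 211 and 273 after siYAP and 303, 334 and 299 after both. Its lowest siNELFA library was only just above siControl.

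CD82 had 8 of 9 knockdown libraries above siControl in TPM, the exception being siYAP 2 at 129 TPM against 138 in siControl 2. GMIP had 7 of 9, the exceptions being siNELFA 2 at 6.13 and siNELFA+siYAP 3 at 7.12 TPM against 7.19 in siControl 2. SIRT4 had 3 of 9, and none of the combined knockdown: siControl stood at 1.52, 1.10 and 0.41 TPM and siNELFA+siYAP at 0.87, 1.38 and 1.14 TPM. On this scale SIRT4 did not separate from control in the combined knockdown, with a difference of 0.29 (SE 0.48) in log2(TPM + 0.1).

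The TPM scale was itself shifted against the counts. Over 10902 genes with at least 5 TPM on average, the median log2 change in TPM was −0.21 for siNELFA, against 0.01 in counts, with −0.08 for siYAP and −0.14 for the combined knockdown. Relative to these medians, the changes in siNELFA were 0.69 for TNFRSF1B, 0.45 for TIMP1, 0.86 for CD82, 0.51 for GMIP and 0.86 for SIRT4. In siNELFA+siYAP they were 0.86, 0.86, 1.07, 0.53 and 0.43 in the same order. Without that reference, every change against siControl in log2(TPM + 0.1) was also above 0, the lowest being 0.25 (SE 0.24) for TIMP1 in siNELFA. These signs are not independent of the choice, which used the same libraries. GMIP, however, was lower in siNELFA+siYAP than in siYAP by TPM (−0.26, SE 0.26), where counts had it higher.

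**Figure D4:**
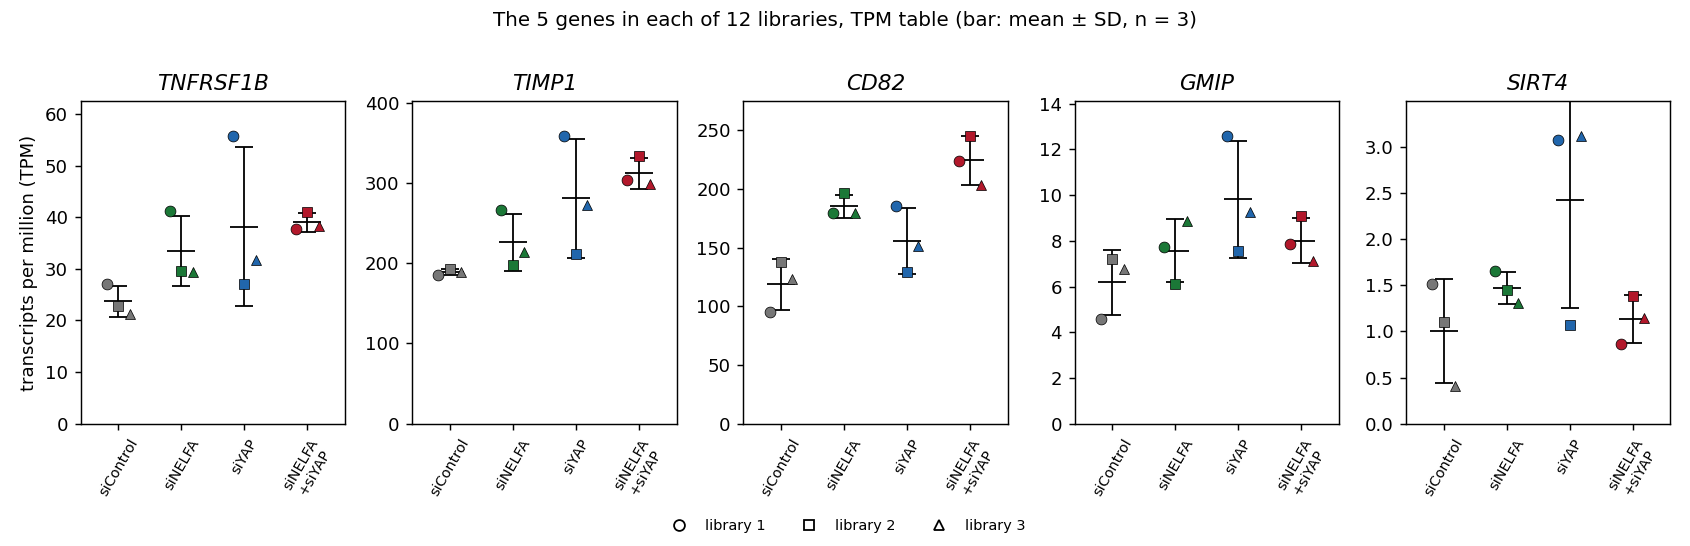
TPM values of the 5 genes in the 12 libraries (one panel each, axis from 0), coloured by group and shaped by library number, with the mean and SD of 3 libraries. TNFRSF1B and TIMP1 keep all knockdown libraries above siControl, while SIRT4 overlaps, with siControl at 0.41 to 1.52 TPM and siNELFA+siYAP at 0.87 to 1.38 TPM.

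The 5 genes also varied together across libraries. Over the 12 libraries the Pearson correlation of log2 CPM between members ran from 0.61 (CD82 and SIRT4) to 0.92 (TNFRSF1B and TIMP1). This is a description: the libraries share groups and library numbers, and the members were chosen for a common pattern. Among 12971 genes averaging at least 50 counts, those most like TNFRSF1B were COL6A1 (r = 0.97), RGL2 (0.96) and ECE1 (0.96). Those most like TIMP1 were TNKS1BP1 (0.97), SNX33 (0.96) and the laminin chain LAMA5 (0.96). For CD82 they were DUSP5 (0.98), ABHD16A (0.96) and XXbac-BPG32J3.20 (0.96), and for GMIP SLC6A6 (0.97), PLIN3 (0.96) and ATG9A (0.96). SIRT4 had looser neighbours, MINOS1-NBL1 (0.91), RGP1 (0.91) and CCDC130 (0.87).

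Relatives and pathway genes of TNFRSF1B, TIMP1, CD82 and SIRT4 were examined in 5 lists that leave the members out. In the edgeR fit, the shares of all genes past the adjusted threshold were 0.00564% for siNELFA, 0.00578% for siYAP and 0.428% for the combined knockdown. At an unadjusted p under 0.05, the shares higher were 2.25%, 0.752% and 8.27%, and the shares lower were 2.21%, 0.549% and 10.2%. The counts of each list at that threshold are to be read against these shares. No listed gene passed the adjusted threshold in siNELFA or in siYAP, by edgeR or by DESeq2. With the replicate block, in which 5.21% of all genes passed in siNELFA, several did, and they are given with their list. DESeq2 was less strict in siNELFA+siYAP, where it called 3.21% of all genes higher and 4.45% lower, and its counts below are to be read against those shares. The lists overlap, with TNFRSF1A and ADAM17 in the signalling list and in 1 other, and CD63 among both the tetraspanins and the metalloproteinase genes.

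Of the TNF receptor superfamily, 20 of 28 listed genes were tested. In siNELFA+siYAP, 12 were higher and 8 lower, with a median of 0.31 against −0.03 over all genes, and 7 were higher and 1 lower at an unadjusted p under 0.05. The closest relative, TNFRSF1A, the other receptor for tumour necrosis factor, was at 0.26 (SE 0.12), 0.29 (SE 0.20) in siYAP and 0.18 (SE 0.16) in siNELFA, and passed in none. The lowest p-values in siNELFA+siYAP were those of TNFRSF10D at 0.82 (SE 0.15, edgeR adjusted p = 0.0735) and TNFRSF10A at 0.73 (SE 0.17, adjusted p = 0.0946), receptors for TRAIL. NGFR, the p75 neurotrophin receptor, was at −1.39 (SE 0.31, edgeR adjusted p = 0.0958), and LTBR, the lymphotoxin beta receptor, at 0.52 (SE 0.13, adjusted p = 0.110). DESeq2 called 5 of the 20 higher and 1 lower. With the block, siNELFA raised LTBR by 0.52, TNFRSF10D by 0.46 and TNFRSF11B by 1.01 and lowered NGFR (−2.25), at edgeR adjusted p-values of 0.0158 to 0.0473. NGFR stood at 0.92 (SE 0.34) in siYAP, the opposite sign.

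Of the genes of TNF receptor signalling, ligands, TRAFs and the sheddase, 23 of 25 were tested in siNELFA+siYAP, with 4 higher and 2 lower at an unadjusted p under 0.05 and a median of 0.15. ADAM17, the protease that sheds TNF and its receptors, was at 0.57 (SE 0.12, edgeR adjusted p = 0.0865), the ligand LTB at 1.94 (SE 0.45, adjusted p = 0.0985), RBCK1, a subunit of the linear ubiquitin ligase, at 0.50 (SE 0.17, adjusted p = 0.192) and TRAF1 at 0.29 (SE 0.12, adjusted p = 0.248). DESeq2 called 1 of the 23.

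Of the tetraspanins, 20 of 32 were tested. In siNELFA+siYAP 13 were higher and 7 lower, with a median of 0.11, and 3 were higher at an unadjusted p under 0.05. These were CD63 at 0.47 (SE 0.11, edgeR adjusted p = 0.0944), CD81 at 0.32 (SE 0.11, adjusted p = 0.193) and CD151 at 0.44 (SE 0.17, adjusted p = 0.248). TSPAN13 was at −1.09 (SE 0.48, edgeR adjusted p = 0.282), and DESeq2 called 1 of the 20. CD9 was at 0.11 (SE 0.16), and CD37, a leukocyte tetraspanin, had 0 to 2 counts per library and was not tested. With the block, siNELFA raised CD63 by 0.43, CD81 by 0.54, CD9 by 0.47 and TSPAN2 by 1.17, at edgeR adjusted p-values of 0.0165 to 0.0479.

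Of the TIMPs and metalloproteinases, 22 of 29 were tested. In siNELFA+siYAP 12 were higher and 10 lower, with a median of 0.11, and 8 were higher at an unadjusted p under 0.05. Of the other inhibitors, TIMP2 was at −0.02 (SE 0.22) and TIMP3 at −0.23 (SE 0.31). The collagenase MMP1 was at 0.72 (SE 0.13, edgeR adjusted p = 0.0735) and the sheddase ADAM19 at 1.56 (SE 0.33, adjusted p = 0.0837). DESeq2 called 4 of the 22 higher. With the block, siNELFA raised ADAM19 by 0.95, MMP14 by 0.45, TIMP2 by 0.31 and again CD63, which binds TIMP1 and stands in this list for that reason, at edgeR adjusted p-values of 0.000385 to 0.0494.

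Of the sirtuins and further genes linked to SIRT4, all 13 listed were tested. In siNELFA+siYAP 4 were higher and 9 lower, with a median of −0.20, and 1 was higher and 2 lower at an unadjusted p under 0.05. The other mitochondrial sirtuins were at 0.14 (SE 0.21) for SIRT3 and −0.41 (SE 0.28) for SIRT5. SIRT1, the nuclear deacetylase, was at −0.65 (SE 0.24, edgeR adjusted p = 0.217) and SIRT2 at 0.44 (SE 0.18, adjusted p = 0.247). Among the further listed genes, DLD was at −0.32 (SE 0.11, edgeR adjusted p = 0.204) and DLAT at −0.27 (SE 0.14, adjusted p = 0.360). None of this list passed in any comparison by edgeR, with or without the block, or by DESeq2.

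In the single knockdowns the lists held few calls at an unadjusted p under 0.05. In siNELFA, 4 tetraspanins (CD63, CD81, CD151 and TSPAN2), the receptor LTBR and the ligand LTB were higher and NGFR was lower. The 1 call of the metalloproteinase list was CD63 again, and the sirtuin list had none. In siYAP, 1 TNF receptor and 1 signalling gene were higher and none in the other 3 lists.

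**Figure D5:**
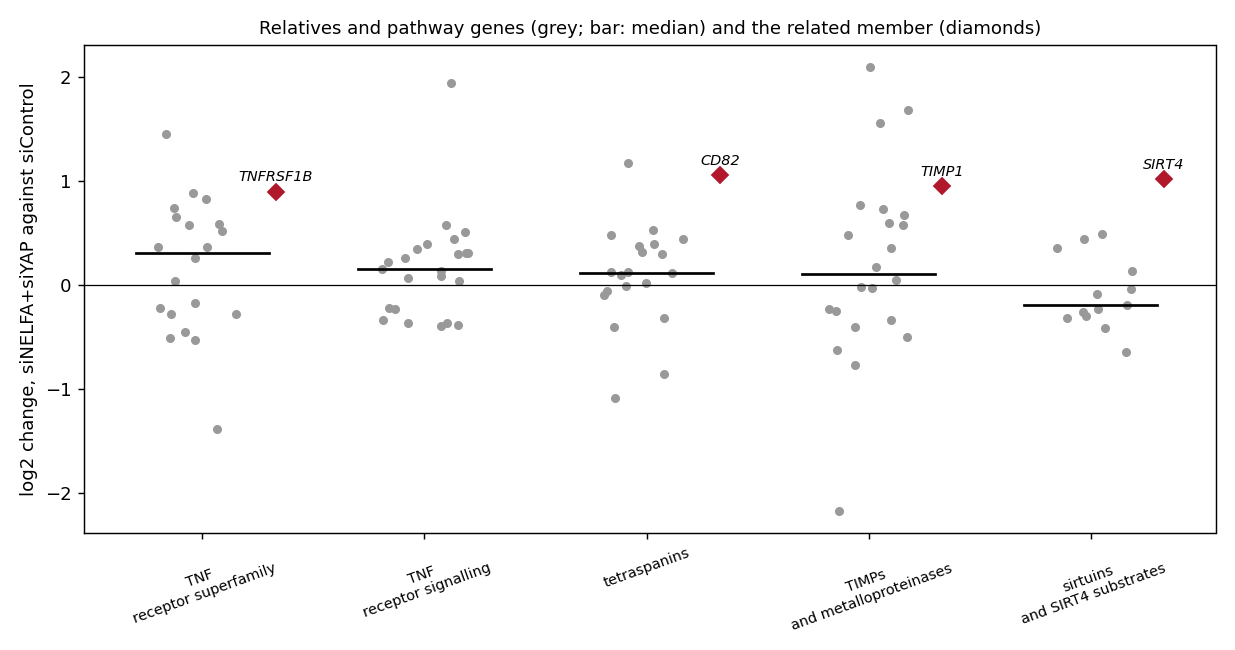
Log2 change in siNELFA+siYAP against siControl (y axis) of the tested genes of 5 lists (grey points, x axis by list, spread sideways for legibility), with the list median as a bar and the related member as a red diamond. The list medians run from −0.20 (sirtuins) to 0.31 (TNF receptors), and the diamonds mark genes chosen for high values in this comparison.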

How the data were processed

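RNA sequencing counts and TPM values of 12 libraries of MDA-MB-231 cells were analysed, 3 in each of 4 groups taken from the sample labels. The count table was made by the authors: per the labels and methods, reads were trimmed with cutadapt, aligned to GRCh38 by STAR and counted per gene by featureCounts, without normalization. The authors also deposited TPM values, estimated per library with Cufflinks named among the tools. The TPM rows of a gene identifier were summed, and 12 FPKM columns, which rescale to the TPM values, were not used. Versions of these tools are not given in the sources used here. The kit marks strand, but the strand setting of the counting is not given, so reads of TIMP1 and the overlapping SYN1 were not separated by anything done here.

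The members and the gene lists were chosen with earlier results of these data known. Named genes were the 5 members, the 3 genes most correlated with each, list genes past the adjusted threshold or, where none passed, up to 4 per list with the lowest p in the combined knockdown, close relatives, and neighbouring genes. The list of relatives of GMIP is not reported here. A few further genes, including those that passed with the replicate block, the 4 named of the 18 and MMP14, were named after their values were seen.

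Each comparison was fitted on its own 6 libraries with edgeR 4.0.16 (R 4.3.3) on the deposited counts: TMM scaling, a filter by expression (minimum count 10, minimum total 15), the quasi-likelihood test and Benjamini-Hochberg adjustment at 0.05 over all genes tested. All 5 members passed the filter. SIRT4, with 6, 10 and 12 counts in siControl, passed it only through the knockdown libraries, where it was higher. Its estimates against siControl are conditional on that. The departure from additivity was fitted on all 12 libraries. Alternatives were RLE factors, DESeq2 1.42.0, no filter, all libraries in 1 fit, the library number as a block, limma 3.58.1 on log2(TPM + 1) and log2(TPM + 0.1), and leaving out each library. Leaving out library 1 of 3 groups together, and log2(TPM + 0.1) for additivity, were added after the data were seen. The fits were tested on simulated data. Deviations from the group mean of same-numbered libraries, over 12971 genes, correlated at 0.638 to 0.885 among siControl, siNELFA and siYAP and at −0.05 to 0.03 with siNELFA+siYAP, so the numbers pair the first 3 groups only. Promoter sequences were taken from RefSeq (GRCh38.p14) and positions from GENCODE on GRCh38, whereas the authors' annotation was an older Ensembl release. Figures were drawn with matplotlib 3.10.9 in Python 3.11.15.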

Additional observations from a re-analysis of the deposited data

How the results depend on the processing

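Against siControl, every member kept a positive log2 change under every alternative run. In the count fits this follows from all knockdown libraries standing above siControl. The TPM values come from the same libraries, so their signs are not independent of the choice either. What moved was the size of the changes and the counts over all genes. The cause was not tested except where fewer libraries entered. Genes higher at an unadjusted p under 0.05 in siNELFA, 399 in the reported fit, numbered 703 with all 12 libraries in 1 fit, 1853 with the replicate block, 228 and 240 by limma on log2(TPM + 1) and log2(TPM + 0.1), and 1284 without library 1 of siControl, siNELFA and siYAP. In siYAP, 130 became 240 with no filter, 422 with all libraries, 883 with the replicate block, 231 and 275 in TPM, and 389 without library 1. In siNELFA+siYAP, 1450 became 788 and 708 in TPM and 3116 without library 1. Leaving out 1 library at a time gave 161 to 638, 61 to 214 and 819 to 3116 such genes in siNELFA, siYAP and siNELFA+siYAP.

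On log2(TPM + 1), the siNELFA changes were 0.47 for TNFRSF1B, 0.25 for TIMP1, 0.65 for CD82, 0.26 for GMIP and 0.34 for SIRT4, and on log2(TPM + 0.1) 0.48 for TNFRSF1B, 0.25 for TIMP1, 0.65 for CD82, 0.30 for GMIP and 0.66 for SIRT4. The siYAP change of SIRT4 was 0.74 on log2(TPM + 1). The siNELFA+siYAP changes were 0.70 for TNFRSF1B, 0.72 for TIMP1, 0.34 for GMIP and 0.12 for SIRT4 on log2(TPM + 1) and 0.72 for TNFRSF1B, 0.72 for TIMP1, 0.39 for GMIP and 0.29 for SIRT4 on log2(TPM + 0.1). GMIP turned negative in siNELFA+siYAP against siYAP (−0.24 and −0.26 at the 2 pseudocounts) and in siNELFA against siYAP (−0.32 and −0.35), as did TNFRSF1B in the latter (−0.13 and −0.14). The departure from additivity moved to −0.063 for TIMP1, −0.11 for CD82 and −0.96 for SIRT4 on log2(TPM + 1) and −0.063 for TIMP1, −0.11 for CD82 and −0.56 for GMIP on log2(TPM + 0.1). Without library 1 it was −0.091 for TNFRSF1B, 0.063 for TIMP1, −0.058 for CD82 and −0.18 for GMIP, and it ranged from −0.84 to −0.24 for TNFRSF1B when 1 library was left out.

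Between knockdowns, the replicate block called CD82 at 0.46 in siNELFA against siYAP, and the pairing changed no other call among the 5. DESeq2 called CD82 at 0.61 in siNELFA+siYAP against siYAP, and the fit with no filter at 0.64. Without library 1, siNELFA+siYAP passed against siNELFA for TNFRSF1B at 0.36 and TIMP1 at 0.55, and against siYAP for TNFRSF1B at 0.54, TIMP1 at 0.46 and CD82 at 0.69. Genes past the adjusted threshold in siNELFA+siYAP against siNELFA numbered 45 by DESeq2, 26 with no filter, 7 and 65 in TPM, 228 without library 1 and 1 to 228 when 1 library was left out. Against siYAP they numbered 749 by DESeq2, 222 with no filter, 1 with the replicate block, 3 and 37 in TPM, 2937 without library 1 and 0 to 2937 when 1 library was left out. In siNELFA against siYAP they numbered 78 by DESeq2, 6 with no filter, 17 with all libraries, 2721 with the replicate block, 20 on log2(TPM + 0.1), 39 without library 1 and 0 to 2 when 1 library was left out.

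Leaving out 1 library at a time, siNELFA+siYAP against siNELFA ranged from 0.011 to 0.36 for TNFRSF1B and 0.30 to 0.55 for TIMP1. Against siYAP the ranges were −0.056 to 0.54 for TNFRSF1B (negative without siYAP 2), 0.16 to 0.46 for TIMP1 and 0.57 to 0.69 for CD82. In siNELFA against siYAP they were −0.21 to 0.42 for TNFRSF1B, −0.26 to 0.065 for TIMP1 and −0.38 to 0.031 for SIRT4, so the order of the single knockdowns was not fixed for these genes. In the fits that leave a group with 2 libraries the spread is pooled over both groups. Depth limits SIRT4 most, with 6 to 32 counts per library.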
